A study of Homo sapiens with 12 samples.

Results

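Exon inclusion was compared between both sets of RNA-seq libraries of PC3E and GS689.Li cells (GS689 below), over every exon event with a mean of at least 20 inclusion and skipping counts per library. These were 98582 of the 114816 exon events in the deposited RNA-seq table, 49880 on the plus and 48702 on the minus strand, covering 68263 distinct exons and 11309 named genes. PC3E and GS689.Li are prostate cancer cell lines derived from PC3, the former with epithelial and the latter with mesenchymal character, and both are labelled wild type. All cells were kept in DMEM/F12 with serum, nonessential amino acids and the antibiotic G418, plated in 10 cm dishes and harvested after a night, with no other treatment. RNA was extracted with Trizol, libraries were made with a stranded Illumina kit, and each line had 3 libraries. The table lists them as set 1 and set 2, with 3 libraries each, and names no line, so the comparison is of set 2 with set 1. The labels do not say that the 3 libraries of a line came from separate cultures, so p-values reflect only how far these libraries vary, part or all of which may be technical.

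An exon between a pair of introns can be kept in the messenger RNA or skipped, and the inclusion level is the share of transcripts that keep it. Splicing factors bind near such exons and shift the choice. ESRP1 and ESRP2 are epithelial RNA-binding proteins that set the choice for many exons in epithelial cells, and their loss during the epithelial to mesenchymal transition, in which cells give up junctions and become motile, is known to change exons of adhesion, cytoskeleton and traffic genes.

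The exons printed here are among those with large differences that are coding and short enough to read whole, so that a reader can see the piece of message that was kept or skipped. Capitals mark the alternative exon and lower case the 12 bases on either side in the neighbouring exons, 5′ to 3′ along the messenger RNA, from GENCODE 29 transcripts. Exons of USO1 (chr4:76716489-76716509, plus strand, hg19), PICALM (chr11:85689113-85689136, minus), CA12 (chr15:63620297-63620329, minus), ENAH (chr1:225692693-225692755, minus) and AFDN (chr6:168314083-168314103, plus) were the ones kept in set 1 and mostly or often skipped in set 2. Those of TEAD1 (chr11:12900436-12900447, plus), MAGI1 (chr3:65433697-65433732, minus) and PRC1 (chr15:91512309-91512350, minus) went the other way.
USO1: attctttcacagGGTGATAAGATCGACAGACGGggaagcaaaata
PICALM: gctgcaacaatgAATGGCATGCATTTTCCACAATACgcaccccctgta
CA12: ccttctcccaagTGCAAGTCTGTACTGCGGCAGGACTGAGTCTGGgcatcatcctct
ENAH: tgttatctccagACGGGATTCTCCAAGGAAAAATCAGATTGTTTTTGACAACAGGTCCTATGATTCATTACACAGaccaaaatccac
AFDN: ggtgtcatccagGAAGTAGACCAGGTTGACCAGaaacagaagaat
TEAD1: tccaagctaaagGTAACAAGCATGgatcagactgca
MAGI1: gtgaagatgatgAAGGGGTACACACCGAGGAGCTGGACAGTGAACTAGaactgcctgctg
PRC1: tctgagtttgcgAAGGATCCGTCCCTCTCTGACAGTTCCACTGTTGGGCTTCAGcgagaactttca
The exon lengths are multiples of 3 in each of these 8, from 12 nt in TEAD1 to 63 nt in ENAH. The 8 were picked by hand, so this is not a share of any set. Of other named coding exons of 75 nt or less, some were multiples of 3, as in DNM1 (12 nt). Others were not, as in ACSF2 (46 nt), TBC1D13 (41 nt) and DNMT3B (70 nt).

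Of the 98582 events, 59531 had fewer than 10 counts of the rarer form over the 6 libraries, and in 57823 of those the rarer form was skipping. A further 613 had fewer than 5 counts in a library, which left 38438 events of 30978 exons in 9134 named genes for testing, at a median of 385 counts per library. The table totals were 93842790 to 120853566 counts per library. They are not sequencing depth, since a read can count in several events. The second-listed library of set 1 stood farther from its fellows than they did from each other, with a median chi-square per event of 1.39 and 1.41 against 1.10, while the pairs of set 2 lay between 0.938 and 1.04. Just inside the limit of 20 counts were exons of ACAT1 (76.0% in set 1, 78.1% in set 2), CYP2R1 (48.9% and 51.3%) and RDH11 (6.83% and 8.86%). Just outside, at 19.83 counts, were an exon of NUDT13 (68.6% and 76.1%) and one of ADAMTS17 (39.2% and 25.5%).

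Inclusion differed between the sets at 1287 of the 38438 tested events (3.35%), counting those with an adjusted p under 0.05 whose means were 5 or more percentage points apart. The exon was kept less often in set 2 at 724 events (1.88%) and more often at 563 (1.46%). These events lay in 1160 exons and in 813 of the 9134 genes (8.9%). The median difference was 14.7 points among the lower and 12.9 among the higher events, beside 1.02 points over all tested events. One of 20 points or more was found at 256 lower and 167 higher events, and one of 50 points or more at 41 and 26. The 3 libraries of set 1 lay wholly above or below those of set 2 at 1226 of the 1287 called events, beside 7184 (18.7%) of all tested. Both strands gave like shares, 636 of 19428 events on the plus strand (3.27%) and 651 of 19010 on the minus strand (3.42%). The count of calls depends on the model. On the log2 ratio of both counts with a pseudocount of 0.5, limma called 334 events, 319 of them among the 1287. Without the second-listed library of set 1, the count was 1613, of which 1095 were among the 1287.

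**Figure D1:**
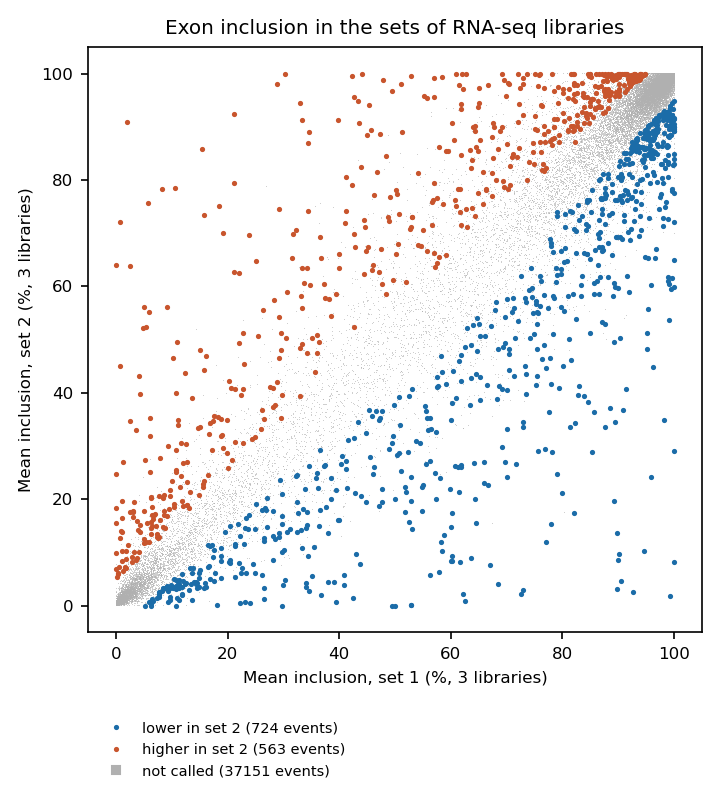
Each point is 1 of the 38438 tested events, with mean inclusion over the 3 libraries of set 1 on the horizontal and of set 2 on the vertical axis, both in percent. Blue points are the 724 events called lower in set 2, red points the 563 called higher and grey points those not called, which crowd along the diagonal and at its ends.

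The extremes were exons kept in most transcripts of one set and in few of the other. In SLC37A2, CD44, CA12, RALGPS2, KIAA1217 and USO1, a called exon fell from at least 80% to at most 20% inclusion. In ARHGEF11, and in CTNND1 for a 289 nt exon against one pair of neighbours, an exon rose from at most 20% to at least 80%. The 33 nt exon of CA12, a membrane-bound carbonic anhydrase, had inclusion of 95.9%, 91.3% and 90.8% in the libraries of set 1 and 1.75%, 2.32% and 3.59% in those of set 2. Nearly all set 1 transcripts thus kept the exon and nearly all set 2 transcripts skipped it. The difference was -90.1 points (log2 odds -8.74 ± 0.53 SE, limma-moderated adjusted p = 1.42e-45). Absence of overlap between the sets was a condition for naming the 12 largest falls, CA12 among them, and the 12 largest rises. In SLC37A2, a sugar-phosphate transporter, the 57 nt exon stood at 100%, 100% and 97.6% in set 1 and at 0%, 1.76% and 3.94% in set 2, on 61.7 and 39.3 counts per library. The library at 0% allows up to 5.86%, taking 3 counts as the limit and counting error only. The libraries again stood at opposite ends of the scale.

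Exons kept less often in set 2 were led, after CA12, by traffic, adhesion and cytoskeleton genes. USO1 encodes a tether for vesicles at the Golgi, and its 21 nt exon was included at 89.8%, 92.7% and 89.1% in set 1 and at 4.65%, 3.86% and 5.39% in set 2. The 24 nt exon of PICALM, a clathrin assembly protein of endocytosis, was included at 93.5%, 99.1% and 95.2% in set 1 and at 24.3%, 23.4% and 24.98% in set 2. The exon of PICALM thus remained in part of the set 2 transcripts, whereas that of USO1 was nearly absent there. The differences were -85.9 points in USO1 (log2 odds -7.64 ± 0.34 SE, limma-moderated adjusted p = 9.59e-56) and -71.7 in PICALM (-6.17 ± 0.30, 3.16e-36). PICALM also had a called event that was higher in set 2.

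The 204 nt exon of CD44, a receptor for hyaluronan, was included at 74.9%, 70.5% and 73.3% in set 1 and at 2.70%, 2.80% and 3.34% in set 2, on 2764 and 3717 counts per library. ENAH, which promotes the growth of actin filaments, kept its 63 nt exon at 57.4%, 65.0% and 64.0% in set 1 and at 2.21%, 1.56% and 2.88% in set 2. The 93 nt exon of the kinase SLK went from 55.2%, 67.4% and 65.0% to 0.859%, 1.39% and 0.318%. All 3 exons were included in most set 1 transcripts and in only a few of set 2. The limma-moderated adjusted p was 6.00e-91 for CD44, 8.90e-40 for ENAH and 8.69e-44 for SLK.

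Further large falls were those of exons of KIAA1217 (89.8% ± 6.06 to 13.8% ± 4.27, SD, n = 3), RALGPS2, an exchange factor for Ral GTPases (82.1% ± 8.73 to 17.5% ± 3.54), the formin INF2 (67.0% ± 5.99 to 7.66% ± 2.60) and LRRC14 (79.9% ± 7.38 to 21.1% ± 12.04). These 4 kept their call under every alternative run. The exons of INF2 (84 nt) and LRRC14 (67 nt) are noncoding.

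Exons kept more often in set 2 were led by ARHGEF11, a guanine nucleotide exchange factor. Its 96 nt exon was included at 2.52%, 1.59% and 1.67% in set 1 and at 91.0%, 92.2% and 89.8% in set 2. The exon was thus rare in every library of set 1 and usual in every library of set 2, a difference of 89.0 points (log2 odds 8.99 ± 0.50 SE, limma-moderated adjusted p = 4.50e-51). DNM1 encodes the membrane-cutting GTPase dynamin 1, and its 12 nt exon went from 20.6%, 22.4% and 20.4% to 93.8%, 93.2% and 90.0%. The 63 nt exon of the polarity scaffold SCRIB went from 8.84%, 6.995% and 8.71% to 78.2%, 78.4% and 78.7%. The SCRIB libraries of set 2 lay within 1 point of each other, but SCRIB also had a called event that was lower in set 2. The limma-moderated adjusted p was 1.60e-30 for DNM1 and 2.62e-76 for SCRIB.

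The 178 nt exon of TCIRG1, a subunit of the proton pump of acid compartments, was included at 32.5%, 27.5% and 26.4% in set 1 and at 99.0%, 96.3% and 99.2% in set 2. In OSBPL3, a lipid-binding protein of the oxysterol-binding family, a 93 nt exon stood at 14.01%, 4.94% and 12.6% in set 1 and at 80.9%, 78.6% and 76.1% in set 2. MLPH links melanosomes to myosin, and its 84 nt exon stood at 6.97%, 3.09% and 4.99% in set 1 and at 54.8%, 56.4% and 57.1% in set 2. In each of these exons the lowest library of set 2 was above the highest of set 1 by more than 40 points. The exons of DDR1, a collagen receptor (33.0% ± 4.12 to 94.4% ± 5.05, SD, n = 3), ACSF2, an acyl-CoA synthetase (33.3% ± 5.94 to 91.3% ± 4.41), TBC1D13, which acts on Rab GTPases (34.6% ± 9.24 to 89.0% ± 3.12), and AKAP9, an anchor for protein kinase A (42.7% ± 6.497 to 95.5% ± 1.85), were in part of the set 1 transcripts and in most of set 2. The DDR1 exon (173 nt) is noncoding, and another called exon of DDR1, at chr6:30853402-30853457, fell from 64.7% ± 1.83 to 47.85% ± 4.62. All 12 of the largest rises kept their call under every alternative run.

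**Figure D2:**
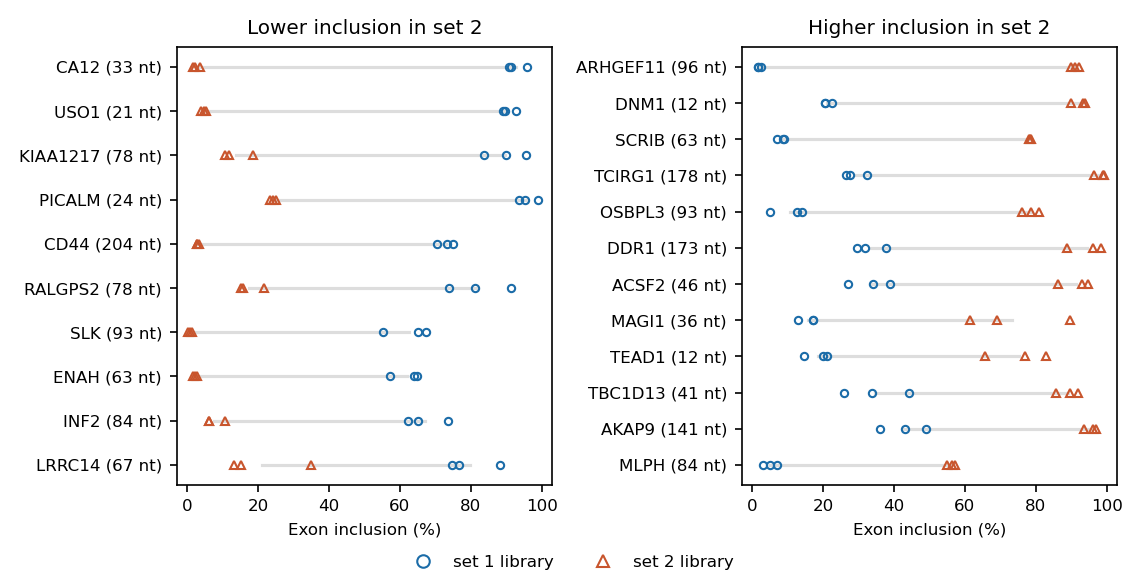
Inclusion in percent in each of the 6 libraries for 10 of the exons with the largest falls (left) and the 12 with the largest rise (right). Blue circles are set 1 libraries, red triangles set 2 libraries, grey lines join the set means, and exon lengths stand in parentheses. The symbols of the sets do not overlap in any row, which was a condition for choosing these exons.

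In some genes several exons changed. Of the 813 genes, 608 had 1 called exon and 205 had 2 or more, with 5 or more in 7 genes, and 49 genes had events in both directions. Exons that overlap, or that are measured against several neighbours, share reads, so they are not independent. In CD44, 9 of 13 tested exons were called, all of them lower. Besides the 204 nt exon, the 102 nt exon at chr11:35229652-35229753 went from 91.6%, 86.5% and 92.2% to 9.43%, 7.87% and 12.04%. The exon at chr11:35219668-35219793 went from 49.6%, 23.3% and 45.6% to 0.808%, 0.622% and 0.723%, with the second-listed library of set 1 the lowest of its set. Both were thus rarer in every library of set 2. The sizes depended on the neighbours they were measured against. Against others, the 204 nt exon of CD44 stood at 99.5% ± 0.236 and 59.5% ± 5.94 (SD, n = 3), and the 102 nt exon at 89.7% ± 4.12 and 3.09% ± 3.67.

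In CTNND1, which encodes p120 catenin, a partner of cadherins, 5 of 10 tested exons were called, 4 higher and 1 lower. The 119 nt noncoding exon at chr11:57556509-57556627 rose from 0.410%, 0.901% and 0.862% to 48.8%, 42.3% and 44.0%. The 289 nt exon at chr11:57558857-57559145, which is partly coding, rose from 6.25%, 6.78% and 5.02% to 58.7%, 53.5% and 53.6%, and against other neighbours, the rise counted above, from 15.4% ± 4.10 to 85.9% ± 1.66 (SD, n = 3). The 72 nt exon at chr11:57561482-57561553 moved the other way, from 97.9%, 97.7% and 97.3% to 84.9%, 82.6% and 81.3%. ABI3BP had the most called exons, 12 of 41, with 10 higher and 2 lower. In its 57 nt exon at chr3:100549422-100549478 inclusion was 13.9%, 12.3% and 14.6% in set 1 and 37.5%, 38.9% and 40.6% in set 2. VEGFA, a growth factor for vessels, had the 72 nt exon at chr6:43748469-43748540 at 49.7%, 52.1% and 48.1% in set 1 and 18.4%, 18.9% and 22.7% in set 2. Those VEGFA and ABI3BP libraries also stood apart by set.

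Of 77 tested genes on a list of known ESRP targets and of exons known to switch in the epithelial to mesenchymal transition, 45 had a called event, 27 only lower, 13 only higher and 5 in both directions. That is 17.8% of the list's 555 tested events, beside 3.39% of all events with a gene name. The list's genes had a median of 6 tested events, beside 3 over all genes. Their median difference, called or not, was 1.49 points, beside 1.02 over all. The list was drawn up with earlier results of these lines known, and such lists came in part from cells of this kind, so the count is not independent evidence of a direction. Beyond the exons above, called members included TCF7L2, a partner of beta-catenin. Its 73 nt exon at chr10:114920378-114920450 stood at 85.4% ± 8.57 in set 1 and 28.8% ± 11 in set 2 (SD, n = 3). Against other neighbours, the TCF7L2 exon stood at 75.2% ± 2.25 and 41.5% ± 2.03, on more counts, and at 77.5% ± 14.1 and 36.4% ± 18.5. The size of its fall thus depended on the neighbours and was smaller in these. NF2, a membrane-cytoskeleton linker, had a 60 nt exon at 87.7% ± 4.93 and 33.6% ± 3.98. In ITGA6, a laminin-binding integrin, the 130 nt exon stood at 96.2% ± 1.67 and 44.8% ± 3.63. EXOC7, of the exocyst that docks vesicles, had a 93 nt exon at 39.8% ± 10.8 and 91.4% ± 5.75 and a 153 nt exon at 51.9% ± 13.9 and 17.6% ± 4.76, which thus moved in opposite directions.

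Of 73 tested actin and focal contact genes, 26 had a called event, 16 only lower, 9 only higher and 1 both, at 9.93% of the list's events beside 3.39% over all. The median difference, called or not, was 1.03 points, beside 1.02 over all. Beside ENAH and INF2, a leading one was PDLIM7, a scaffold on actin fibres, whose 189 nt exon was included at 88.2%, 71.4% and 71.4% in set 1 and at 16.8%, 7.98% and 11.3% in set 2, on only 28.7 and 80.7 counts per library (limma-moderated adjusted p = 1.14e-09). FLNA encodes filamin A, a crosslinker of actin filaments, and its 24 nt exon was included at 53.4%, 54.1% and 54.7% in set 1 and at 82.4%, 81.5% and 80.3% in set 2. The called exons of the linkers DST and MACF1 were lower in set 2, for example an 18 nt exon of DST at 99.0% ± 0.906 and 61.1% ± 3.05 (SD, n = 3) and an 18 nt exon of MACF1 at 60.8% ± 8.02 and 26.3% ± 3.92.

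Of 94 tested genes of vesicle traffic, the Golgi and endocytosis, 32 had a called event, 15 only higher, 12 only lower and 5 both, at 10.2% of the list's events beside 3.39% over all, with a median difference of 1.29 points. After USO1, PICALM, OSBPL3 and TBC1D13, the 9 nt exon of AP1B1, a subunit of a clathrin adaptor, went from 1.74%, 0.352% and 1.59% to 26.4%, 28.7% and 26.1%. The 12 nt exon of VPS29, of the retromer that returns cargo from endosomes, went from 53.5%, 62.0% and 70.4% to 100% in all 3 libraries, measured against one of its neighbours. Both exons were kept more often in every set 2 library, but VPS29 also had a called event that was lower in set 2. In the junction and polarity list, 8 of 39 genes had a called event, at 13.7% of events beside 3.39% over all and with a median difference of 1.17 points, 3 only higher, 1 only lower and 4 both. Many of these called events were of CTNND1, whose events share reads. The lists share genes. AFDN, CTNND1, MAGI1, PKP4 and SCRIB were also called members of the list of ESRP targets and transition exons. ENAH and INF2 of the actin list and USO1 and OSBPL3 of the vesicle list were on it too. In the junction list MAGI1, a scaffold at tight junctions, had a 36 nt exon at 12.9%, 17.2% and 17.1% in set 1 and at 61.3%, 69.0% and 89.7% in set 2. Afadin, AFDN, which ties nectins to actin, had its 21 nt exon at 81.5%, 89.9% and 77.1% in set 1 and at 42.7%, 42.5% and 33.4% in set 2. The set 2 libraries of MAGI1 ranged widely but all lay above set 1, and those of AFDN all lay below it.

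Among splicing regulators and RNA-binding proteins, 15 of 83 tested genes had a called event, 9 only higher, 5 only lower and 1 both. At 4.18% of the list's events this was close to the 3.39% over all. Without the second-listed library of set 1 it was 25 genes and 7.80% of events, beside 4.51% over all. The 117 nt exon of QKI, an RNA-binding protein, was included at 99.6%, 99.6% and 99.6% in set 1 and at 60.5%, 65.6% and 58.5% in set 2 (limma-moderated adjusted p = 7.50e-26). QKI thus went from constant inclusion to skipping in part of the transcripts. In RBFOX2 a 40 nt exon stood at 82.0% ± 0.273 in set 1 and 95.2% ± 2.42 in set 2 (SD, n = 3), in PTBP1 a 57 nt exon at 33.0% ± 3.57 and 48.4% ± 5.73, and in MBNL1 a 54 nt exon at 61.8% ± 1.18 and 42.2% ± 2.49. Another called MBNL1 exon, at chr3:152173331-152173366, rose from 76.6% ± 6.05 to 88.6% ± 1.27. The partly coding exons of TRA2B (276 nt, 8.85% ± 2.23 and 14.6% ± 0.591) and SRSF6 (268 nt, 9.74% ± 2.25 and 21.7% ± 4.61), both splicing activators, were included slightly more often in set 2. The 156 nt exon of HNRNPA1 stood at 52.9% ± 7.97 and 99.5% ± 0.472, but this gene has many near-identical copies among which reads could be split, and the call was lost with precision weights (adjusted p = 0.205, limma, in a range over alternatives from 1.08e-83 to 0.205). MBNL2 (90.3% ± 4.46 and 69.3% ± 5.80) and RALY (98.9% ± 1.93 and 72.7% ± 9.32) also lost their call under some alternatives. For MBNL2 this happened with limma on the log2 ratio and a pseudocount of 0.5 (adjusted p = 0.129). It also happened without the first-listed library of set 2 (0.107, quasi-binomial F test). By that F test RALY lost its call without the third-listed library of set 1 (adjusted p = 0.125) or the second-listed of set 2 (0.0658). RALY also lost it without robust or trended moderation (0.0555, F test) and with precision weights (0.115, limma).

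Of 81 tested chromatin and transcription regulators, 19 had a called event, 8 only higher, 10 only lower and 1 both, at 6.64% of the list's events beside 3.39% over all, with a median difference of 1.28 points. TEAD1, the DNA-binding partner of YAP, had its 12 nt exon at 14.5%, 21.1% and 19.96% in set 1 and at 65.6%, 83.0% and 77.0% in set 2. YAP1 itself had a 48 nt exon at 63.7% ± 5.23 in set 1 and 42.8% ± 0.437 in set 2 (SD, n = 3). Both partners thus moved in opposite directions. DNMT3B, which methylates DNA, had a 70 nt exon at 27.4%, 64.1% and 58.6% in set 1 and at 0% in all 3 libraries of set 2. There it had 76 skipping counts in all, and 3 inclusion counts would have allowed inclusion of up to 2.29% (counting error only). GRHL1, an epithelial transcription factor, went from 97.4%, 100% and 100% to 46.6%, 60.8% and 74.1%, and the 82 nt noncoding exon of BRD9, of a chromatin remodeller, from 49.3%, 59.2% and 71.7% to 12.2%, 6.68% and 6.49%. These 3 exons were measured at low depth in at least one set, and their libraries did not overlap.

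Of 55 cell cycle and mitosis genes, 11 had a called event, or 19 without the second-listed library of set 1, with 5 only higher and 6 only lower of the 11. That was 5.397% of the list's events beside 3.39% over all, or 8.88% beside 4.51% without that library. PRC1, which bundles microtubules between dividing cells, had its 42 nt exon at 13.7%, 20.6% and 14.02% in set 1 and at 42.7%, 48.3% and 49.96% in set 2. TERF1, a telomere protein, had a 60 nt exon at 46.1%, 42.5% and 43.4% in set 1 and at 20%, 19.4% and 22.4% in set 2. CDC25C, the phosphatase that starts mitosis, stood at 76.8% ± 9.45 and 49.0% ± 9.40 (SD, n = 3), and the kinetochore motor CENPE at 29.3% ± 7.49 and 54.2% ± 13.8. The CENPE call was lost without the second-listed library of set 2 (adjusted p = 0.106, limma-moderated, in a range over alternatives from 0.00154 to 0.273). With limma on the log2 ratio and a pseudocount of 0.5, CDC25C (adjusted p = 0.197, in a range from 0.000385 to 0.197) and TERF1 (0.0713, in a range from 1.24e-27 to 0.0713) also lost theirs. Of 32 apoptosis genes, 2 had a called event, or 7 without the second-listed library of set 1, at 1.32% of the list's events beside 3.39% over all. Without that library the share was 4.83%, beside 4.51% over all. The 2 were MADD, with a 60 nt exon at 19.96%, 18.4% and 23.4% in set 1 and 37.4%, 45.5% and 40.1% in set 2, and the receptor TNFRSF1A, with a 74 nt exon at 84.8%, 89.7% and 86.9% and at 72.1%, 79.3% and 72.5%. Both lost their call with limma on the log2 ratio and a pseudocount of 0.5 (adjusted p = 0.129 and 0.267), in ranges over alternatives from 7.43e-09 to 0.129 for MADD and from 1.38e-13 to 0.267 for TNFRSF1A.

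Short exons and exons that keep the reading frame were called more often than others. Of coding exons of 27 nt or less, 40 of 320 were called (12.5%), 20 lower and 20 higher, beside 3.67% of all coding exons and 3.08% of those of 101 to 150 nt. Coding exons whose length is a multiple of 3 were called in 5.04% of cases and the others in 2.497%. A multiple of 3 was found for 60.8% of coding exons called lower, 66.4% of those called higher and 45.4% of those not called. These shares are descriptions, and the share called also varied with inclusion. Of exons with a mean inclusion between 20% and 80%, 14.4% were called, beside 0.633% of those over 95%. Coding status made little difference, with 3.67% of coding, 4.33% of partly coding and 3.87% of noncoding exons called. Flanking introns had a median length of 1793 and 1472 nt (upstream and downstream) for exons called lower, 1324 and 1396 for exons called higher and 2210 and 2094 for those not called. Very short exons with large differences included the 18 nt exon of ANXA6, an annexin, at 25.5%, 17.9% and 20.3% in set 1 and 63.8%, 61.1% and 63.3% in set 2, and the 15 nt exon of FNBP1, a membrane-bending protein, at 58.2%, 82.1% and 68.7% and at 13.99%, 36.5% and 30.9%. ANXA6 and FNBP1 show both directions, in each case with no overlap between the sets.

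**Figure D3:**
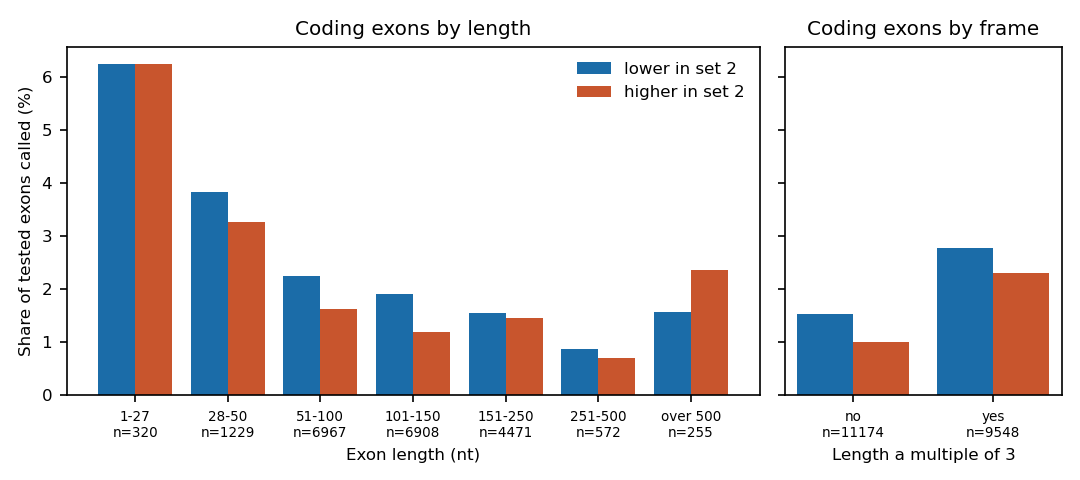
The share of tested coding exons called lower (blue) or higher (red) in set 2, in percent, by exon length in nt (left) and by whether the length is a multiple of 3 (right). The bars for exons of 27 nt or less reach 6.25% in both directions, above every other length class, and those for multiples of 3 stand above those for other lengths.

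Totals of inclusion and skipping counts per gene give the level of each gene beside its splicing. Of 11991 genes, 4259 differed (35.5%), 2108 higher in set 2 (17.6%) and 2151 lower (17.9%), by limma-voom with an adjusted p under 0.05. Scaled by library totals without trimmed means, the split was 2580 higher and 1676 lower, with the median of all genes shifted to 0.12 (log2), so 39.4% of calls were lower in place of 50.5%. Without the third-listed library of set 1, or the first- or second-listed of set 2, 2690, 2756 and 2704 genes passed. In bulk samples, fewer cells of a type and less RNA per cell cannot be told apart. Levels of genes below are in CPM after trimmed-mean scaling of the table totals. Summed levels of marker lists are in CPM of the table totals without trimmed means, so the scales of genes and sums differ. Neither is corrected for the number of events of a gene. ESRP1 stood at 301, 416 and 360 CPM in set 1 and at 0.145, 0.925 and 0.566 in set 2 (log2 difference -9.68 ± 0.51 SE, limma-voom adjusted p = 1.08e-05). ESRP2 stood at 94.4, 75.9 and 100.2 in set 1 and at 13.7, 14.5 and 14.1 in set 2 (-2.67 ± 0.16, 1.73e-05). ESRP1 was thus nearly absent from set 2, whereas a part of the ESRP2 level remained.

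RBM47, another epithelial RNA-binding protein, fell from 18.1, 19.6 and 21.8 CPM to 0.374, 0.856 and 0.609 (log2 difference -5.08 ± 0.30 SE, limma-voom adjusted p = 1.78e-05). NOVA1, best known as a splicing factor of neurons, rose from 0.977, 1.71 and 1.07 to 6.45, 11.5 and 8.25 (2.81 ± 0.32, 0.000417), and the kinase CLK4, which acts on splicing factors, from 9.71, 8.86 and 10.4 to 21.4, 25.2 and 20.1 (1.199 ± 0.16, 0.000865). Among 86 splicing regulators with a total, 6 rose and 8 fell, and the others did not pass the test, whereas 35.5% of all genes did. MBNL1 (0.84 ± 0.26), SRPK2 (0.50 ± 0.14), MATR3 (0.49 ± 0.14), RBM39 (0.40 ± 0.11), SRSF6 (-0.59 ± 0.20), CLK2 (-0.57 ± 0.18) and KHSRP (-0.54 ± 0.14) passed narrowly (log2 ± SE), with limma-voom adjusted p from 0.0205 to 0.0492, and each lost its call in some alternative. Leaving out single libraries of either set ended calls among them, the third-listed library of set 1 all 7, with limma-voom adjusted p then from 0.0651 to 0.165. From skipping counts alone, MATR3 (-0.31) and CLK2 (0.30) changed sign and did not pass.

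Of 32 epithelial marker genes, 31 were lower in set 2, with a median log2 difference of -3.03. The summed level of the list, without trimmed-mean scaling, was 10150 to 11880 CPM in set 1 and 1988 to 2842 in set 2. CDH1, the epithelial cadherin, stood at 113.7, 99.4 and 119.3 CPM in set 1 and at 0.581, 1.31 and 0.664 in set 2 (log2 difference -7.10 ± 0.30 SE, limma-voom adjusted p = 7.11e-06). Of 21 mesenchymal marker genes, 15 were higher, beside 17.6% of all genes, and 2 lower, beside 17.9%. The lower ones were VCAN and, with a call lost under several alternatives, FN1. VIM, the intermediate filament vimentin, stood at 53.2, 70.7 and 68.4 in set 1 and at 1340, 1246 and 1519 in set 2 (4.42 ± 0.15, 3.31e-06). The epithelial genes were thus mostly lower and most mesenchymal genes higher in set 2. S100A4, a motility-associated protein, was uneven in set 1, at 6.09, 61.8 and 14.5, with the second-listed library the highest. Of 10 prostate luminal markers 3 were in the table. Those 3 summed to 9.18 to 17.4 CPM in set 1 and 2.12 to 3.40 in set 2. Of 10 neuroendocrine markers 2 were present (15.5 to 49.0 and 41.0 to 60.9), and of 9 haematopoietic markers 3 (5.01 to 7.24 and 10.5 to 14.2), with 0 members at 0 in all libraries in any of these lists. Their part in the splicing differences was not tested.

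Totals of genes with a called exon were set beside their splicing. ENAH, whose 63 nt exon fell, had a higher total in set 2 (0.70 ± 0.18 SE on the log2 scale, limma-voom adjusted p = 0.0153, and 0.0572 without the first-listed library of set 2, in a range over alternatives from 0.000472 to 0.0572). For ARHGEF11 the total differed by 0.29 ± 0.14 (0.129) and for CD44 by -0.39 ± 0.15 (0.0673), and neither passed. The CD44 value depends on which counts are summed. It passed as higher in set 2 from its deepest event alone (0.38, limma-voom adjusted p = 0.0416) and from skipping counts alone (1.46, 0.000105), and as lower without the second-listed library of set 1 (-0.50, 0.0297), in a range of adjusted p over alternatives from 0.000105 to 0.230. The CDH1 exon with most counts was at 99.7% ± 0.248 in set 1 and 100% in set 2 and was not called, on 18.7 counts per library in set 2. Of the 813 genes with a called event, 327 also differed in their total (40.2%), beside 2770 of 8321 (33.3%) of genes tested without a call. Of those 327, 182 were higher and 145 lower.

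**Figure D4:**
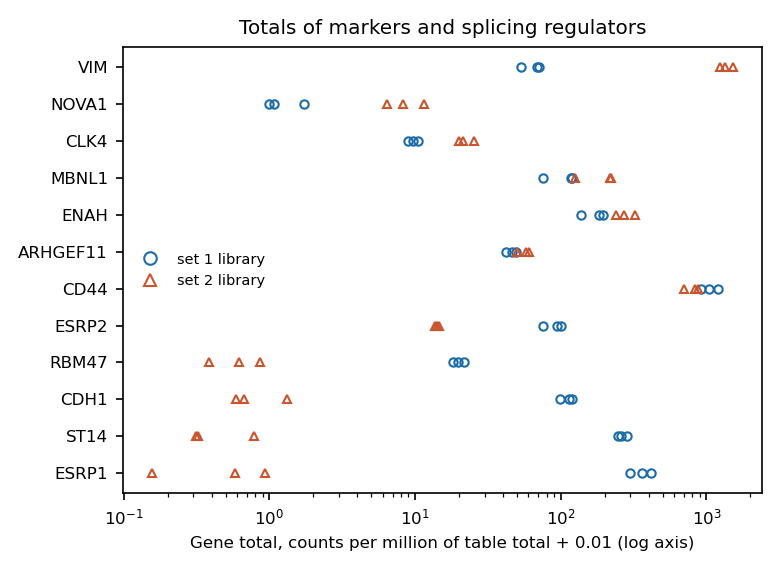
Gene totals in CPM after trimmed-mean scaling, with 0.01 added, on a log axis, for marker genes and splicing regulators. The axis label leaves out the scaling. Blue circles are the 3 set 1 libraries and red triangles the 3 set 2 libraries. ESRP1, ST14, CDH1 and RBM47 lie far lower and VIM far higher in set 2, while the symbols of CD44, ARHGEF11 and MBNL1 lie close together or overlap.

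RASL-seq, an assay that ligates probe pairs across chosen splice junctions, was run on both lines with named libraries, which allows the signs to be set side by side. Of the 98582 members, 1890 were also in the RASL-seq table, and that table held 0 events on the minus strand. Events in both tables were called in RNA-seq more often, 134 of 1635 (8.2%), than events absent from RASL-seq, 1153 of 36803 (3.13%). The first count of each RASL-seq pair was read as inclusion, a choice inferred from its relation to RNA-seq inclusion. The other order would reverse every RASL-seq sign, so these signs are not independent of the RNA-seq values. Of 107 called events with at least 20 RASL-seq counts per library in each line, 102 had the same sign in set 2 minus set 1 as in GS689 minus PC3E. This held for 63 of 66 lower and 39 of 41 higher events, and for 36 of 36 that differed by 20 points or more. PC3E replicate 2 stood apart from its fellows in RASL-seq (mean chi-square per event 4.84 and 3.52, beside 1.93 between those), and without it 95 of 107 had the same sign. These signs and the levels of CDH1, VIM and ESRP1 are those of set 1 as PC3E and set 2 as GS689, but no library was assigned on that basis.

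The sizes in both assays often differed. The USO1 exon was included at 79.3% ± 1.58 in PC3E and 2.35% ± 1.15 in GS689 by RASL-seq (SD, n = 3), beside 90.5% ± 1.93 and 4.63% ± 0.761 in the sets. The SLK exon stood at 81.4% ± 2.79 and 3.19% ± 0.273, beside 62.5% ± 6.43 and 0.856% ± 0.537, and the ITGA6 exon at 97.9% ± 1.11 and 53.0% ± 2.37, beside 96.2% ± 1.67 and 44.8% ± 3.63. All 3 fell by more than 40 points in each assay, with levels of USO1 and SLK in PC3E and set 1 farther apart than their SDs. The 96 nt exon of ARFIP1, by contrast, was at 2.39% ± 1.24 and 0.246% ± 0.279 by RASL-seq and at 58.8% ± 2.83 and 13.3% ± 0.461 in the sets, and the 289 nt exon of CTNND1 at 0.304% ± 0.178 and 4.43% ± 0.526 beside 6.01% ± 0.904 and 55.3% ± 2.96. Both went the same way in each assay at very different levels. The median size over the 107 was 14.7 points in RNA-seq and 8.66 in RASL-seq, and the differences correlated with r = 0.786 across events, which share libraries and are not replicates.

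**Figure D5:**
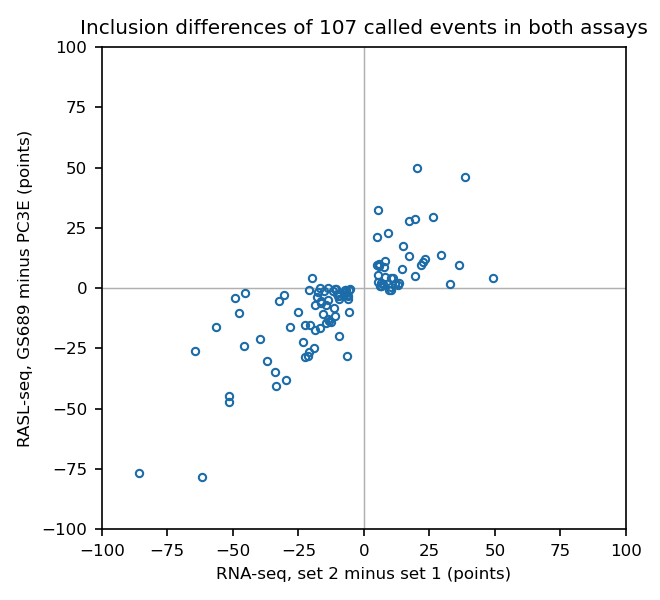
Each circle is 1 of 107 events called in RNA-seq with at least 20 RASL-seq counts per library in each line. The horizontal axis is the inclusion difference of set 2 minus set 1 and the vertical axis that of GS689 minus PC3E, both in percentage points. Of the 107 circles, 102 lie in the quadrants of equal sign, and many lie nearer to 0 on the vertical axis.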

How the data were processed

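RNA-seq of 3 libraries per line was analysed, with RASL-seq set beside it. The authors deposited a table of whole-number inclusion and skipping counts per exon event, 3 comma-joined values per cell, with effective lengths of 101 for skipping and 102 to 202 for inclusion, per the file headers. STAR 2.5.2a, kallisto 0.43.0 and hg19 are named in the submitters' processing notes, with no role or order. The RASL-seq table as deposited holds pairs of counts, and the header does not give their order. The first was read as inclusion, which was inferred from its relation to RNA-seq inclusion. Unused columns with values of samples numbered 0.

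Inclusion is the length-corrected inclusion count over the sum of both. Each event was fitted with a quasi-binomial model and an F test. Dispersions were moderated with limma 3.58.1 (squeezeVar in R 4.3.3, with a robust trend on the mean count and a floor of 1). Events needed a mean of 20 counts per library, 5 in each library and 10 of the rarer form. A call needs a Benjamini-Hochberg adjusted p under 0.05 over all tested events and 5 points. Gene totals were tested with limma-voom after trimmed-mean scaling. Genes were named by exon and intron lengths in GENCODE 29, on another build, without converting coordinates. Of 114816 events, 109504 matched 1 gene, 2492 several and 2820 none. With the intron length shifted by 7 nt 226 matched, and on the opposite strand 6.

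On simulated data (36078 events, 200 changed, 3 runs) shifts of 1 in log2 odds were detected in 26.7% and shifts of 2 in 62.2% of events. Of the events detected, 6.38% were false. Detection there was by adjusted p alone, without the minimum difference in points, so these are not the rates of the calls reported above. The simulation also had no library that stood apart from its fellows, and every event had the same spread, a dispersion of about 2. Between pairs of real libraries of a set, the mean chi-square per event ran from 1.91 to 4.38. For totals (11949 genes), 94.6% of genes changed 2-fold were detected and 6.59% of calls were false. The exons and gene lists were chosen with earlier results of these data known. Named exons are the 12 largest called differences in each direction without overlap and with 50 counts per library in each set (1 per gene), up to 4 genes per list, and the markers. For totals they are up to 6 per direction from the splicing, epithelial and mesenchymal lists. Exons and genes named beyond this rule (FLNA, DST, MACF1, AP1B1, VPS29, YAP1, TCF7L2, NF2, ITGA6, EXOC7, RBFOX2, PTBP1, MBNL1, TRA2B, SRSF6, ANXA6, FNBP1, ABI3BP, VEGFA, further exons of CD44 and CTNND1, ARFIP1) were chosen after their values were seen. Some named items are not reported here.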

Additional observations from a re-analysis of the deposited data

How the results depend on the processing

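The count of 1287 called events was within 1.5 times under 11 alternatives besides those that leave out a library. A like count need not mean the same events. Limma on the log2 ratio with a pseudocount of 5 called 1118 events, of which 780 were among the 1287. With precision weights it called 1271, of which 1129 were among them. The count was 334 with limma on the log2 ratio and a pseudocount of 0.5, and 423 with a minimum difference of 20 points. Leaving out single libraries gave 978 to 1626 called events and 2690 to 4463 gene totals, beside 4259. Skipping counts alone gave 2064 gene totals and turned the totals of MATR3 (-0.31), CLK2 (0.30) and CD44 (1.46, from -0.39, which did not pass); the cause was not tested. Of 49 named exons, 34 stayed on their side of the threshold in every alternative, and of 920 values 881 stayed on their side of the threshold, 39 lost the call and 0 reversed. Under the pseudocount of 0.5, 12 named exons lost their call. Of 29 named totals, 19 stayed on their side of the threshold in every alternative. No paired analysis was possible because the deposited RNA-seq table carries no replicate numbers or line names for its sets. At this depth 59531 events had too few counts of the rarer form to test.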
